A study of Mus musculus with 3 samples.

Results

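Bone marrow stromal cells feed and hold the blood cells around them, and 10 genes of that support were followed here in ST2 cells, a stromal line from mouse bone marrow. They were chosen by name as factors that stroma supplies to blood stem cells, B cells and osteoclasts, and each of the 10 names occurred on 1 row of the 51826 in the deposited table. Messenger RNA had been sequenced from 3 libraries, all of cells transfected with a plasmid and 30 nM of siRNA. Control cells (NC_Vector) were given control siRNA with empty vector. NELL2 overexpression (NC_Nell2, below the NELL2 library) used the same control siRNA with a construct for NELL2, and Fn1 knockdown (siFn1_Vector, below the siFn1 library) used empty vector with siRNA against Fn1, the gene of fibronectin. There was 1 library in each group, so no value below has a replicate error, no test was possible and every difference is one between libraries. The model is a transfected line in bulk culture, and transcripts of the construct were not separated from those of the endogenous gene. The culture medium is given as DMEM in the sample labels and as α-MEM in the methods, and the sources used here do not say whether differentiation had been induced before RNA was taken.

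Stromal cells of the marrow keep blood stem cells in place with the chemokine Cxcl12 and the adhesion molecule Vcam1 and maintain them with Kitl, the ligand of the receptor Kit. Angpt1, the ligand of the receptor Tek, is made by the same cells, as is Il7, a growth factor for B cell progenitors, while the leptin receptor Lepr marks the perivascular stroma that produces much of Cxcl12 and Kitl in adult marrow. The other members control osteoclasts, the cells that resorb bone. Csf1 and Il34 are ligands of the receptor Csf1r, on which osteoclast precursors depend, Tnfsf11 (RANKL) drives their differentiation, and Tnfrsf11b (osteoprotegerin) is a secreted decoy that binds Tnfsf11.

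The labels were checked first. Nell2 was at 0.640 FPKM (fragments scaled to transcript length and to all mapped fragments) in the control, 326 FPKM in the NELL2 library and 1.06 FPKM in the siFn1 library, and Fn1 was at 2802, 2489 and 137 FPKM. Depth estimated from the low values was 23000000, 23700000 and 24200000 fragments, in the same order. All 6 stromal markers were present, with Col1a1 at 1494, 1601 and 1352 FPKM. Of 10 markers of blood cells and macrophages, 3 reached 1 FPKM in any library. The summed level of all 10 was 17.7, 20.1 and 10.4 FPKM, with the pan-leukocyte marker Ptprc at 0.0633 FPKM or less and the T cell marker Cd3e listed at 0. Lyz2, from 11.8 FPKM in the control to 7.22 FPKM in the siFn1 library, and Cd68, from 4.08 to 1.57 FPKM, carried most of the difference. The part of such cells in the results below was not tested. Osteoclast markers apart from Ctsk, which was at 101 to 116 FPKM, were at 4.33 FPKM or less, and endothelial markers were at 1.33 FPKM or less. In bulk RNA, fewer cells of a type and less RNA per cell cannot be told apart.

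Promoter sequence from RefSeq (GRCm38.p6) was found for 5 of the 10 members, namely Csf1, Cxcl12, Kitl, Lepr and Tnfsf11, with 2 start sites for Lepr. The windows reach from 250 bases before to 50 bases after a start, and 2 motifs were searched on both strands: the NF-kB consensus, and the core of the interferon response element, GAAANNGAA. The 250 bases before the start are shown for the members whose windows held a match, which are also the most abundant member and the one with the widest range over the libraries in log2(FPKM + 1). Both lines run 5′ to 3′ on the strand of the gene, with the match in capitals.
Csf1, chr3:107760470-107760719, minus strand: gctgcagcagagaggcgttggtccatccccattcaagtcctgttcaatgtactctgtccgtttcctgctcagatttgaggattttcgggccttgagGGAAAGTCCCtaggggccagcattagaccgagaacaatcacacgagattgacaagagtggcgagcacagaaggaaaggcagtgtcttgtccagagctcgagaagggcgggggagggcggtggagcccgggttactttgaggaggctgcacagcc
Lepr, chr4:101717157-101717406, plus strand: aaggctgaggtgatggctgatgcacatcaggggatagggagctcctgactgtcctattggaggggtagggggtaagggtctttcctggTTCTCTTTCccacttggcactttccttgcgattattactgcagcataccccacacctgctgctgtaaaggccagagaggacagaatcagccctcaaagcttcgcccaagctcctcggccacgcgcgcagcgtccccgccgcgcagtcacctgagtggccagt
In Csf1 the capitals mark the NF-kB consensus on the opposite strand, from 154 to 145 bases before the start, and 4.51% of the 32851 windows in the table held that motif. In Lepr they mark the interferon core, also on the opposite strand, from 162 to 154 bases before the start, and 8.56% of windows held it. Each motif was found in 1 of the 6 windows of members. A match is a description of the letters and does not show that a factor binds there.

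The members covered a range of about 2 orders of magnitude in the control library. Csf1 was the most abundant at 161 FPKM, above 97.1% of the 12306 genes that reached 1 FPKM there. Tnfrsf11b followed at 79.4 FPKM and Vcam1 at 48.7 FPKM. A middle group held Lepr at 7.71, Cxcl12 at 7.40, Tnfsf11 at 4.66 and Il34 at 4.62 FPKM, and the lowest were Il7 at 1.94, Kitl at 1.92 and Angpt1 at 1.47 FPKM, the last at a percentile of 6.31 among those genes. All 10 members passed the filter of 1 FPKM in either library in both comparisons. High and middle levels were thus found among both the osteoclast factors and the stem cell factors, and the lowest 3 were factors for blood cells. The 3 most abundant members and the sixth and seventh, Tnfsf11 and Il34, kept their order in all 3 libraries. Lepr and Cxcl12 exchanged places in the NELL2 library (8.07 and 9.44 FPKM), where Angpt1 also stood above Il7 and Kitl.

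**Figure D1:**
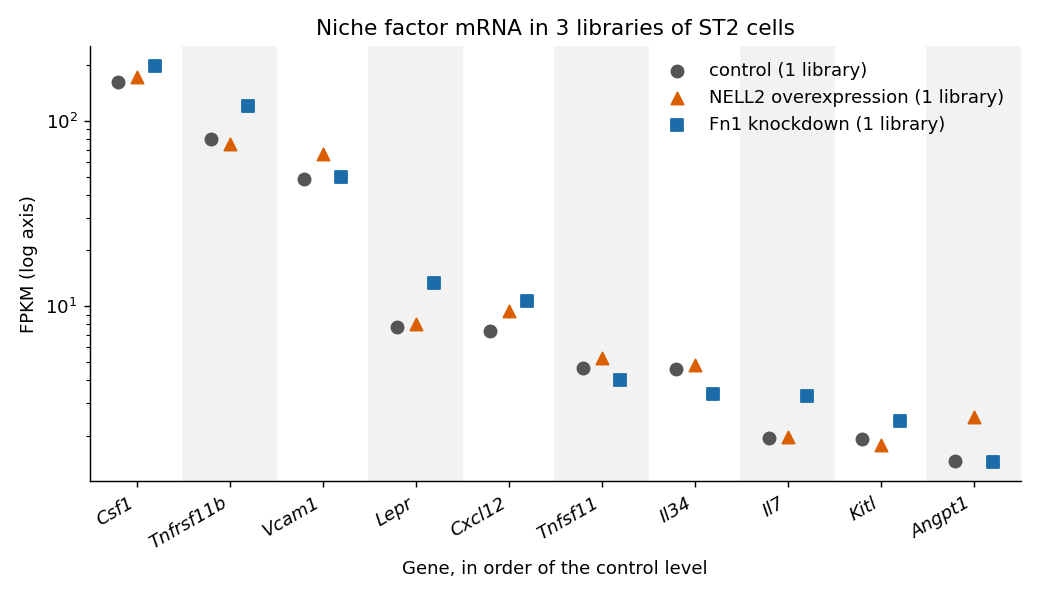
FPKM on a log axis for the 10 niche genes, ordered by control level, with 1 point per library (circle control, triangle NELL2 overexpression, square Fn1 knockdown) and no error bars since each group had 1 library. Csf1, Tnfrsf11b and Vcam1 sit at 48.7 FPKM or more in every library, and the other members at 13.3 FPKM or less.

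Genes were called at a difference of at least 1 in log2(FPKM + 1), which is 2-fold on that scale. No member was called in either comparison, 0 of 10 in the NELL2 library against a background of 0.652% of 12572 genes, and 0 of 10 in the siFn1 library against 1.23% of 12574 genes. At a lower cutoff of 1.5-fold, the NELL2 library gave 0 of 10 members with a background of 2.59%. The siFn1 library gave 2 of 10, Lepr and Tnfrsf11b, with a background of 6.24%. These counts at 1.5-fold moved with the constant added to FPKM: with 0.1 in place of 1, Angpt1 passed in the NELL2 library and Il7 joined the other two in the siFn1 library, and with 5 no member passed in either. On the same log2(FPKM + 1) scale, the median ratio of the members was 0.077 in the NELL2 library and 0.26 in the siFn1 library, beside medians of 0.0072 and -0.0028 over all genes that passed the filter. The members' medians moved to 0.063 and 0.18 with 5 FPKM added in place of 1. Over members at 5 FPKM or more in either library of a comparison they were 0.12 and 0.47. These last values cover different members, since Tnfsf11 entered only through its level in the NELL2 library (4.66 to 5.26 FPKM). The 0.47 leaves out Tnfsf11, Il34 and Angpt1, which were lower than the control after Fn1 knockdown, and Il7 and Kitl, which were higher. Of the 10 members, 8 were higher than in the control in the NELL2 library (52.3% of all genes) and 7 in the siFn1 library (49.5% of all genes). Both comparisons use the same control library, so their values are not independent of each other.

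To say how large a ratio was usual at a given level, the central 90% of the log2 ratios was taken over all genes of similar FPKM, a range that leaves out 10% of genes by construction. With NELL2 overexpression it ran from -0.33 to 0.38 over 6401 genes at a mean of 1 to 10 FPKM, from -0.24 to 0.28 over 5565 genes at 10 to 100 FPKM and from -0.22 to 0.32 over 606 genes above 100 FPKM. Vcam1 and Angpt1 lay outside it. After Fn1 knockdown it was wider, from -0.55 to 0.50, -0.43 to 0.44 and -0.33 to 0.48 in the same bands, and Il7, Lepr and Tnfrsf11b lay outside it. These 5 values were all on the high side. With 5 FPKM added in place of 1, Cxcl12 lay outside in both libraries and Il7 lay inside.

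**Figure D2:**
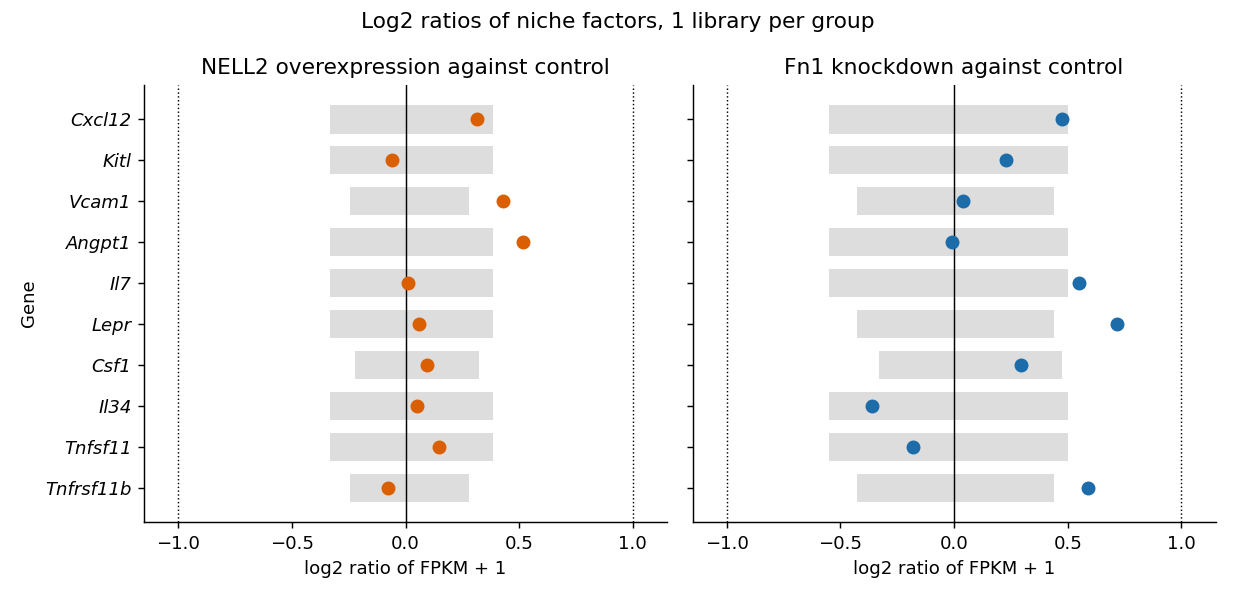
Log2 ratio of FPKM + 1 against the control for each niche gene (points), in the NELL2 library on the left and Fn1 knockdown on the right. Grey bars give the central 90% of all genes in the FPKM band of that gene, and dotted lines mark a 2-fold difference. Vcam1 (0.43) and Angpt1 (0.52) lie beyond the bar on the left, and Il7 (0.55), Lepr (0.72) and Tnfrsf11b (0.59) on the right, none of them reaching a dotted line.

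Among the factors that hold and maintain blood stem cells, Cxcl12 was at 7.40 FPKM in the control, 9.44 FPKM in the NELL2 library and 10.7 FPKM in the siFn1 library. Both treated libraries were thus above the control, at 128% and 144% of its level, with log2 ratios of 0.31 and 0.47 that lay within the usual range, but outside it with 5 FPKM added. Vcam1, the ligand of the integrin that contains Itga4, was at 48.7, 65.9 and 50.0 FPKM. Only the NELL2 library stood apart, at 135% of the control and a log2 ratio of 0.43, while the siFn1 library was at 103%. Kitl was at 1.92, 1.80 and 2.42 FPKM, with log2 ratios of -0.061 and 0.23. It was the lowest member in the NELL2 library. Angpt1 was at 1.47, 2.54 and 1.46 FPKM, the value in the NELL2 library being 173% of the control (log2 ratio 0.52) and that in the siFn1 library 99.0%. With 1 coding transcript of 4260 bases, these values correspond to about 144, 257 and 150 fragments.

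Il7 gave the reverse pattern to Angpt1. It was at 1.94 FPKM in the control and 1.97 FPKM in the NELL2 library, and at 3.30 FPKM in the siFn1 library, which is 170% of the control and a log2 ratio of 0.55. Its 4 coding transcripts are from 1785 to 4858 bases long, which puts the control value at about 80 to 217 fragments and the knockdown value at about 143 to 388. Lepr showed the widest range of the members over the 3 libraries in log2(FPKM + 1), at 7.71, 8.07 and 13.3 FPKM. Its level in the siFn1 library was 173% of that in the control (log2 ratio 0.72), and in the NELL2 library 105%. Leptin itself (Lep), made by adipocytes, was at 0 FPKM in the first 2 libraries and at 0.0127 FPKM in the third.

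The genes whose pair of log2 ratios lay nearest to that of Lepr, among 6150 genes at 10 FPKM or more in the control, were Pgd (0.065 and 0.71), Gclc (0.057 and 0.75) and Ganab (0.062 and 0.75), at Euclidean distances of 0.014, 0.032 and 0.033. Pgd is an enzyme of the pentose phosphate pathway, Gclc the catalytic subunit of the first step of glutathione synthesis and Ganab a glucosidase of the endoplasmic reticulum. The likeness rests on 3 libraries, and says nothing of a shared function.

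Of the ligands of Csf1r, Csf1 was at 161, 172 and 198 FPKM and Il34 at 4.62, 4.82 and 3.37 FPKM. Csf1 exceeded Il34 by 34.9 times in the control and by 35.8 times in the NELL2 library. After Fn1 knockdown it exceeded Il34 by 58.7 times, since Csf1 was at 123% and Il34 at 73.0% of the control (log2 ratios 0.29 and -0.36). Each of these ratios lay within the usual range for its level. The receptor Csf1r, which belongs to the myeloid lineage, was at 1.06, 1.23 and 1.06 FPKM.

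Tnfsf11 was at 4.66 FPKM in the control, 5.26 FPKM in the NELL2 library and 3.99 FPKM in the siFn1 library. The NELL2 library was the highest and the siFn1 library the lowest, with log2 ratios of 0.15 and -0.18. Its single coding transcript of 2236 bases gives about 239, 279 and 216 fragments. Its decoy Tnfrsf11b was at 79.4, 75.2 and 120 FPKM, or about 5141, 5031 and 8179 fragments of its single coding transcript of 2818 bases. In the siFn1 library it thus stood at 151% of the control (log2 ratio 0.59), and in the NELL2 library at 94.7%.

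The balance of Tnfsf11 and Tnfrsf11b is widely used as a measure of how strongly stroma favours osteoclast formation, and the study measured it in NELL2-deficient preosteoblasts. Here Tnfrsf11b exceeded Tnfsf11 in every library, by 17.0, 14.3 and 30.1 times in FPKM. The ratio of Tnfsf11 to Tnfrsf11b was 0.0587 in the control, 0.0699 in the NELL2 library and 0.0332 in the siFn1 library. It thus stood at 119% and 56.7% of the control, log2 differences of 0.25 and -0.82. No constant was added here, and no usual range was taken for a ratio between genes, so the size of these differences cannot be placed. Taken singly, only Tnfrsf11b in the siFn1 library lay outside the usual range for its level. Both genes contributed to the value after knockdown, the decoy more than the ligand, with Tnfsf11 at 85.6% of its control level.

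**Figure D3:**
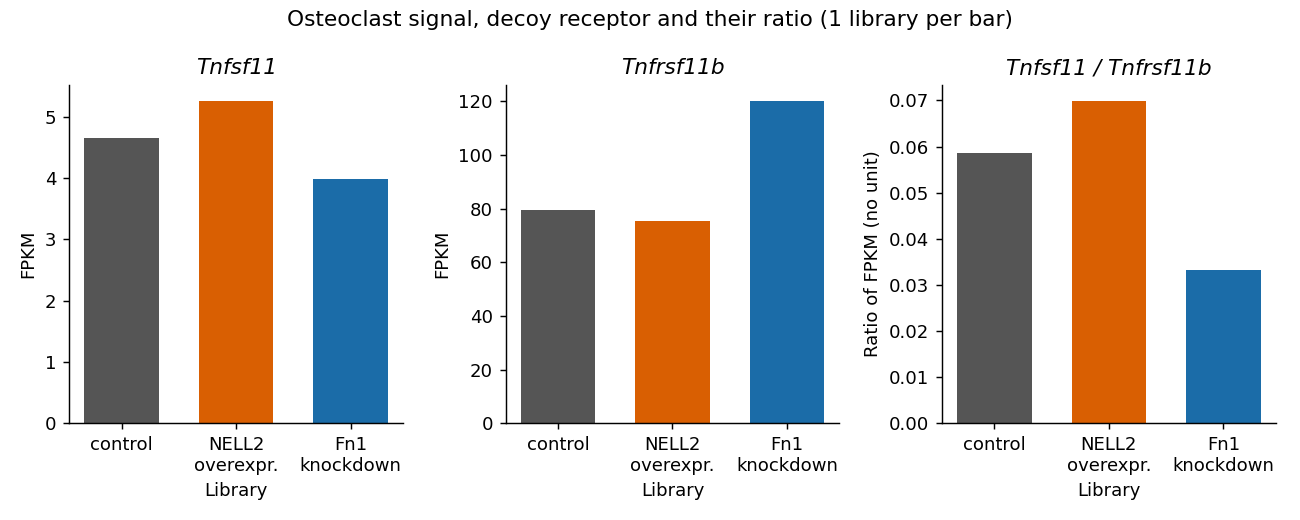
FPKM of Tnfsf11 (left) and Tnfrsf11b (middle) and the ratio of their FPKM (right, no unit) in the control, NELL2 and siFn1 libraries, 1 library per bar and so without error bars. The ratio is 0.0587, 0.0699 and 0.0332, and the lowest bar on the right goes with the highest bar in the middle.

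No exon of a member overlapped another gene on its own strand in GENCODE M21. Vcam1, Angpt1, Il7 and Il34 overlap genes on the other strand (Gm43109, Gm17473, Gm16685, and Gm15894 with Gm15895). Whether strand was used in counting is not given in the sources used here, so reads of these pairs may not be told apart, but the partners were at 0.280 FPKM or less in every library. Several members have coding transcripts of very unequal length, such as Csf1 with 773 to 4176 bases and Kitl with 564 to 5648 bases, and one FPKM value per gene does not show a difference between such forms.

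The genes around the members were taken from lists of the receptors, related ligands and upstream signals. No gene of these lists was called at 2-fold in either comparison. Of 16 receptors and binding partners, 7 passed the filter in the NELL2 library and 8 in the siFn1 library. Their median log2 ratios were 0.11 and -0.070. These medians cover different genes, since Ptprz1, at 0.873 FPKM in the control, passed only through its higher level in the siFn1 library (log2 ratio 0.096). Among the other 7 genes the middle value in the siFn1 library was that of Ackr3, at -0.14. The most abundant gene of this list was Itgb1, which pairs with Itga4 in the receptor of Vcam1 (497, 527 and 624 FPKM). It was followed by Sdc1, a syndecan (43.6, 46.9 and 32.9 FPKM), and Lgr4, a further receptor of Tnfsf11 (18.2, 17.4 and 25.4 FPKM). Itga4 itself was at 0.586 FPKM or less, below the filter in every library. Of the receptors typical of blood cells, Kit was at 0.0660 FPKM or less, Il7r at 0.0378 or less and Cxcr4 at 0.541 or less, and Tnfrsf11a, the receptor through which Tnfsf11 acts on osteoclast precursors, was at 0.671 FPKM or less. Il2rg, the chain that pairs with Il7r in the receptor of Il7, was higher than these at 1.80, 2.58 and 0.888 FPKM (log2 ratios 0.36 and -0.57). In the siFn1 library it was at 49.3% of the control, which is past 2-fold in FPKM but not with 1 FPKM added. Ackr3, the other receptor of Cxcl12, which clears it from the surroundings, was at 11.6, 12.9 and 10.5 FPKM.

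Of 23 other cytokines and niche ligands of stroma, 15 passed the filter in each comparison, with medians of 0.043 and 0.062. The bone matrix protein osteopontin (Spp1) was the most abundant at 2008, 2283 and 2727 FPKM, followed by Ptn, which supports blood stem cells, at 83.1, 81.8 and 48.9 FPKM, and Gas6, a ligand of the receptor kinase Axl, at 78.8, 75.0 and 66.6 FPKM. Those past 1.5-fold in log2(FPKM + 1), named after their values were seen, were Lif in the NELL2 library (6.99 to 11.8 FPKM, log2 ratio 0.68), and Ptn (-0.75) and the growth factor Igf1 (7.78 to 4.63 FPKM, -0.64) in the siFn1 library. The lists were counted with 1 FPKM added only, which understates low genes such as the cytokine Tslp, at 1.30 FPKM in the control and 2.30 FPKM (177%) in the NELL2 library, and Flt3l, at 153% of the control in the siFn1 library. Of 18 genes of perivascular and reticular stromal identity, 17 passed, with medians of -0.0039 and -0.097, and Foxc1, the transcription factor of Cxcl12-abundant reticular cells, was at 10.8, 10.2 and 9.85 FPKM. Thy1, Grem1 and Ly6a were the most abundant, at 138, 115 and 107 FPKM in the control. Itgav was the only one past 1.5-fold, in the siFn1 library (21.3 to 33.5 FPKM, 0.63).

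Of 14 receptors and enzymes that act upstream of Tnfsf11 in stroma, 13 passed, and none was past 1.5-fold. With NELL2 overexpression 12 of the 13 were higher than in the control (52.3% of all genes), with a median of 0.11, and in the siFn1 library 8 of 13 (49.5% of all genes), with a median of 0.040. Ptgs2, the inducible enzyme of prostaglandin synthesis, was the most abundant at 147, 182 and 160 FPKM, followed by Tnfrsf1a at 63.8, 64.4 and 68.1 FPKM and Il6st, the shared receptor subunit of the Il6 family, at 34.2, 36.8 and 38.7 FPKM. Of 12 other stromal signals to osteoclasts, 8 passed, with medians of -0.0022 and -0.054. Sema3a, a semaphorin that restrains osteoclast formation, was at 24.8, 23.3 and 40.4 FPKM and was past 1.5-fold in the siFn1 library (log2 ratio 0.69), whereas Cthrc1 was at 151, 142 and 145 FPKM and Efnb2 at 23.1, 23.6 and 30.5 FPKM. Of 8 proteases known to cleave members, 4 passed, namely Mmp2 (305, 316 and 246 FPKM), Mmp14 (172, 170 and 180 FPKM), Adam10 (46.9, 50.3 and 40.8 FPKM) and Adam17, which releases several membrane-bound cytokines from the cell surface. Adam17 was lower than the control in both treated libraries, at 18.8, 12.8 and 12.1 FPKM, with log2 ratios of -0.52 and -0.59, the latter past 1.5-fold.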

How the data were processed

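Per the labels, polyadenylated RNA was sequenced on an MGISEQ-2000 with paired ends, 1 library for each of 3 groups. The authors mapped reads to the mouse transcriptome with HISAT2 (GRCm38 per the submitters' processing notes) and deposited FPKM per gene. The tool versions, the annotation and the program that computed FPKM are not given in the sources used here. The methods also name DESeq normalization and a moderated test, and whether that normalization was applied to the deposited FPKM is not given in the sources used here.

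The members and gene lists were chosen with earlier results of these data known. Genes named were the members, Nell2 and Fn1, list genes called or among the 3 highest in the control, and the 3 nearest in pattern to the member of widest range; others were named after their values were seen. Ratios were log2(FPKM + 1) differences over all rows, which understate changes of low genes, with a filter of 1 FPKM in either library. Depth was inferred from FPKM times length in genes with a single transcript of 600 bases or more; 30.5% to 31.3% of low values lay within 0.02 of a whole fragment, which did not recover whole reads, and fragment numbers are therefore approximate. Without whole counts no counting interval was given. Names were matched to GENCODE M21. Python 3.11.15, pandas 2.3.3 and numpy 2.4.6 were used.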

Additional observations from a re-analysis of the deposited data

How the results depend on the processing

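With pseudocounts of 0.1 and 5 FPKM, median-of-ratios scaling, no filter and a filter of 5 FPKM, 0 members were called in either comparison. At 1.5-fold, 2 members passed after Fn1 knockdown and 0 in the NELL2 library. In settings chosen after seeing the data these counts became 3 and 1 with a pseudocount of 0.1 FPKM and 0 and 0 with 5 FPKM, and stayed at 2 and 0 with the scaling. All 60 alternative log2 ratios of single members kept their sign and stayed below 2-fold, the largest being 0.78. The scaling factors were 0.998 to 1.004, so that setting tests little. The median after Fn1 knockdown was 0.47 over the 5 members at 5 FPKM or more, against 0.26 over all 10, and in the NELL2 library 0.12 over 6 members against 0.077. The member found only in the latter set, Tnfsf11, passed through its level in the NELL2 library, so these medians cover different genes. The sets of members outside the central 90%, examined under settings chosen after seeing the data, remained Vcam1 and Angpt1, and Il7, Lepr and Tnfrsf11b, except that a pseudocount of 5 FPKM added Cxcl12 to the former and put Cxcl12 in place of Il7 in the latter. The ratio of Tnfsf11 to Tnfrsf11b after Fn1 knockdown was 56.9% and 58.6% of the control with 0.1 and 1 FPKM added to both genes. No paired analysis was possible because only 1 library existed per group, which also meant that no replicate could be left out. The spread between cultures was not measured and limits every comparison here.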
